A study of Mus musculus with 81 samples.

Results

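Public CDR3s are T-cell receptor β junctions with the same amino acid sequence in many animals. Here a CDR3 was counted as public when it was read in frame in the blood of at least 10 of 27 mice, with all blood libraries of a mouse pooled. By this rule 1157 of the 222752 productive CDR3s found in blood were public, and 221595 were not. The number of mice chose the members, so every value below that follows from being in many mice is a description and carries no test. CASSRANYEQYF, the CDR3 of the transferred OT-1 cells, and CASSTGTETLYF, taken here as the rearrangement of the lymphoma cells, were left out of members and totals alike, and the productive templates that remain are called endogenous templates.

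The libraries came from Pep Boy mice (CD45.1, B6.SJL-Ptprc<a> Pepc<b>/BoyJ), which keep their own T cells, and were made from genomic DNA of blood or tumor. In the treatment experiment, 15 mice with tumors of EG7.OVA, an ovalbumin-expressing line derived from the T-cell lymphoma EL4, received 1e6 naive OT-1 cells, which carry a transgenic receptor for an ovalbumin peptide. The controls were then dosed with 1e9 mRBC-CTRL, mouse red blood cells without the signals. The other arms received mRBC-OVA-4-1BBL-IL-12, red blood cells carrying the ovalbumin peptide on MHC class I, 4-1BBL and interleukin 12, at 2.5e8 or 1e9 cells, with 5 mice in each arm. Blood was taken on day 0 before dosing and on day 7, and tumors on day 7. In the rechallenge experiment, 7 mice cured by the lower dose (2.5e8) after 1e6 OT-1 cells were bled on days 65 and 73, around a second EG7.OVA challenge, and on days 126 and 136, around a challenge with EL4. Their controls were 5 age-matched naive mice given 5e5 OT-1 cells and bled on days 65 and 73. The 81 libraries (66 of blood, 15 of tumor) held 482 to 23605 endogenous templates, and the shallowest was the day 7 blood of mouse 5 at 1e9. Receptor chains of OT-1 donor cells other than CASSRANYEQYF cannot be told apart from those of the host.

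A β chain is assembled by joining a V, a D and a J segment, with bases trimmed from the segment ends and untemplated N bases added at the joints by terminal transferase. Because several codons spell the same residue and many V segments end alike, a CDR3 close to germline can be assembled along several routes, whereas a CDR3 that needs particular N bases has few. CDR3s shared between animals are known for few N additions and for many nucleotide versions of the same peptide.

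The rearrangements below show both kinds of public CDR3, and those that took the largest shares. Each is the CDR3 from its first cysteine codon onwards, 5′ to 3′, and N insertions are in capitals. The read ends before the last codon, so the final phenylalanine is not spelled. The first set shows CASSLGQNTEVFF made from 5 V segments and TCRBJ01-01, 4 of them without an N insertion.
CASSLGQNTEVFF with TCRBV03-01: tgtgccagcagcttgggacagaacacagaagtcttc
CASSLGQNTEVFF with TCRBV15-01: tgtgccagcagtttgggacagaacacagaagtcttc
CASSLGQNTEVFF with TCRBV16-01: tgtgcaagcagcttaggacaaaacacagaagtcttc
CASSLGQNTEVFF with TCRBV04-01: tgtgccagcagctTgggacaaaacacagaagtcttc
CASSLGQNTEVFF with TCRBV12-02: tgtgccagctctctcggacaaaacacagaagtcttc
The next set shows the same nucleotide sequence recurring between mice. The first 2 rearrangements were in the blood of 17 and 14 mice although they hold 2 and 3 N bases, and the last 2, of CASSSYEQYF and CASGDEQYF, were in 15 and 14 mice and hold none.
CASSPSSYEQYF with TCRBV03-01 and 2 N bases: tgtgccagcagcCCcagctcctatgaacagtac
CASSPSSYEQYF with TCRBV03-01 and 3 N bases: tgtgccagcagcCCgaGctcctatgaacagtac
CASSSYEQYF with TCRBV04-01: tgtgccagcagctcctatgaacagtac
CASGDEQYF with TCRBV13-02: tgtgccagcggtgatgaacagtac
The last set shows the opposite end of N insertion, a member of 15 residues on TCRBJ02-03, and the rearrangements behind the largest public shares of a library.
TCRBV03-01 to TCRBJ02-03 with 6 N bases: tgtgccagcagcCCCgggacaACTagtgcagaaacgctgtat
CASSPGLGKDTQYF with TCRBV04-01: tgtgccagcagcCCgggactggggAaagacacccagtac
TCRBV14-01 to TCRBJ02-07 of cured mouse 6: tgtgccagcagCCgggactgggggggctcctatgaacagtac
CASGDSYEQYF with TCRBV13-02: tgtgccagcggggacagctatgaacagtac

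Most CDR3s belonged to a single mouse. Of all productive blood CDR3s, 182069 were in 1 mouse, 34140 in 2 to 4, 4921 in 5 to 8 and 465 in 9. Just inside the limit, 270 CDR3s were in 10 mice, and no CDR3 was in more than 25. CDR3s of 10 mice and of 9 mice were alike on the other measures, with 11.4 against 10.2 nucleotide sequences per CDR3, 1.80 against 1.82 N insertions and 13.4 against 13.4 amino acids. The 3 CDR3s in 25 mice were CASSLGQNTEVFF, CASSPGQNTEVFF and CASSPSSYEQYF, and those in 24 mice were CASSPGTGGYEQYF, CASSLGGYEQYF, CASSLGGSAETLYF and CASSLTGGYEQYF. From the CDR3s of few mice to those of many, the number of nucleotide sequences per CDR3 climbed from a mean of 1.04 (1 mouse) to 39.4 (20 or more mice). The mean N insertions went from 4.37 to 1.43 and the mean length from 14.2 to 12.8 amino acids.

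**Figure D1:**
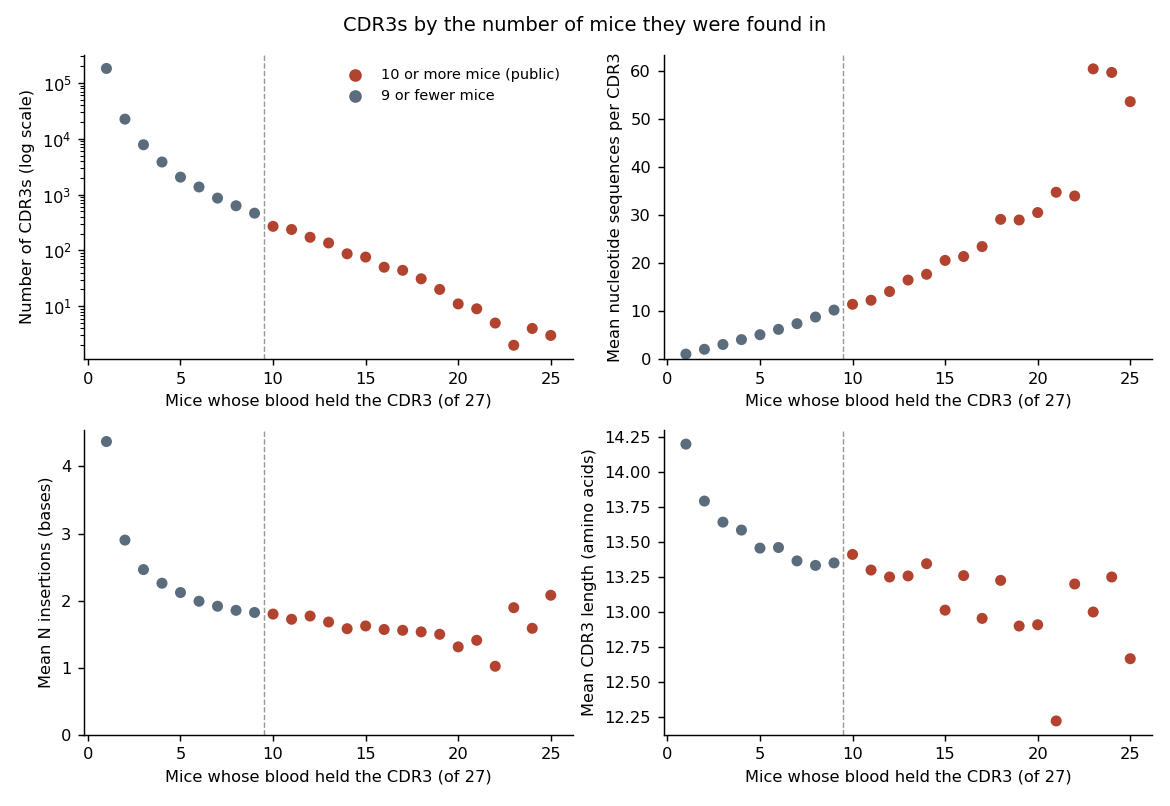
Blood CDR3s grouped by the number of mice that held them (x axis, of 27), with the number of CDR3s on a log scale, the mean number of nucleotide sequences per CDR3, the mean N insertions in bases and the mean length in amino acids (an axis that does not start at 0). Red points are public CDR3s (10 or more mice) and no step is seen at the limit, where 465 CDR3s of 9 mice lie beside 270 of 10 mice, while the points over 20 mice rest on at most 11 CDR3s each.

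A public CDR3 was an assembly of many rearrangements. Members had a median of 14 nucleotide sequences in blood (3 to 97) and a median of 8 V segments (1 to 16), but 1142 of 1157 (98.7%) used a single J segment. The most nucleotide sequences were those of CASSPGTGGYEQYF with 97, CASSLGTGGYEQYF with 68, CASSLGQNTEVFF with 62, a further member ending in TGGYEQYF with 55 and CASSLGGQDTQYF and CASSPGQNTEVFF with 54 each. At least 5 V segments were used by 961 members (83.1%), and 79 members kept to 1. Of the 18679 nucleotide sequences of members in blood, 15225 (81.5%) were in 1 mouse only, with a mean of 2.03 N insertions, and the 267 that were in at least 5 mice had a mean of 0.730. The most widely shared nucleotide sequence of a member was found in a median of 3 mice, and in 101 members (8.73%) no nucleotide sequence was shared between mice at all. Only 16 members had a nucleotide sequence in at least 10 mice. No rearrangement of a member lay 1 base from another of the same CDR3 and V segment with at least 20 times its templates in the same library. The paper states that sequences had been collapsed and filtered, so this count cannot tell whether such neighbours were removed earlier. More distant neighbours were not counted.

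Some of the widest members had no rearrangement free of N insertions, among them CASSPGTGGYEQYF (mean 3.38), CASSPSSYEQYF (2.90) and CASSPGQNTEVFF (2.33). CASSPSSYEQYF had 45 nucleotide sequences, and 60.8% of its rearrangements used TCRBV03-01, and 1 of these was in 17 mice. On TCRBV03-01 it was in 23 mice with 206 templates in blood. The rearrangement with 3 N bases printed above was also in 5 tumors, with 93 templates in all. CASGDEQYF was the opposite case, with 6 nucleotide sequences, 0.05 N insertions on average, and 85% of its rearrangements on TCRBV13-02. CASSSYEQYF and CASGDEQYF were named after their values were seen. The members with the most N insertions, that of 15 residues printed above (mean 6.12), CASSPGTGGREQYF (5.92) and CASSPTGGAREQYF (5.79), were in 12, 10 and 12 mice and had 13, 12 and 18 nucleotide sequences.

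Counting each nucleotide rearrangement 1 time per mouse, the 24455 blood rearrangements of public CDR3s had a mean of 1.67 N insertions and the 322496 of other CDR3s 3.57. No N base was found in 26.7% of the public and 7.21% of the other rearrangements, and 2 or fewer in 73.6% and 36.2%. The gap was wider at the D to J joint (0.628 against 1.77 bases) than at the V to D joint (1.04 against 1.80). The D segment could not be resolved in 25.8% of public and 19.4% of other rearrangements. Over members, the mean N insertions ranged from 0 to 6.12 (median 1.45), and 37 members (3.20%) averaged 4 or more. Members were 9 to 16 amino acids long. Public rearrangements averaged 13.2 amino acids and others 13.95. CASS opened 1033 members (89.3%) against 59.6% of other CDR3s, whereas CASG opened 65 (5.62%) against 11.5%. The inner residues DWG, which the germline D segment can encode, were in 101 members (8.73%) and 3.84% of others.

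**Figure D2:**
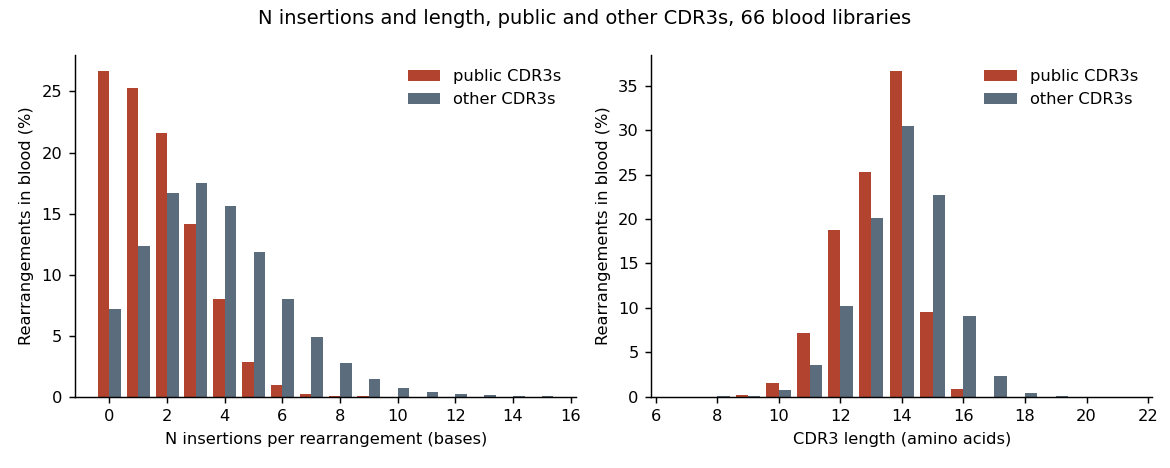
Percentage of blood rearrangements (y axis) by number of N insertions in bases (left) and by CDR3 length in amino acids (right), for public CDR3s (red) and other CDR3s (grey), 66 libraries pooled. Public rearrangements peak at 0 N insertions (26.7% against 7.21%) and thin out above 14 amino acids.

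Segment use differed between public and other CDR3s in the blood of nearly every mouse. TCRBJ02-07, whose germline end encodes YEQYF, was used by 25.9% to 32.8% of the public rearrangements of a mouse (median 29.8%) and 17.1% to 18.99% of the others (median 17.9%), higher in 27 of 27 mice. TCRBJ01-01 was also higher in 27 of 27 (medians 13.9% and 10.9%). TCRBJ01-05 (0.330% and 3.56%) and TCRBJ01-04 (4.41% and 7.42%) were lower in 27 of 27, and TCRBJ02-01 (6.53% and 9.97%) in 26. Among V segments, TCRBV03-01 (13.7% and 7.51%) and TCRBV12-01 (9.55% and 4.02%) were higher in 27 of 27 mice. TCRBV13-02 (4.51% and 11.5%), TCRBV31-01 (0.909% and 6.31%) and TCRBV01-01 (0.881% and 6.02%) were lower in 27 of 27. TCRBV13-02 encodes the CASG start and TCRBV31-01 and TCRBV01-01 encode starts other than CASS.

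In the tumors, which the rule did not use, the same 10 segments leaned the same way in at least 13 of 15 tumors each. TCRBJ02-07 took a median of 36.4% of public and 20.7% of other rearrangements and was higher in 15 of 15, as was TCRBV12-01 (14.8% and 7.42%). TCRBV31-01 and TCRBV01-01 were lower in 15 of 15. The lowest counts, 13 of 15, were those of TCRBV13-02, TCRBJ01-01 and TCRBJ01-04. A CDR3 largely fixes its own J segment, and its first residues limit its V segments. The segments of the members therefore recur wherever the members do, and the tumor values are a description.

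**Figure D3:**
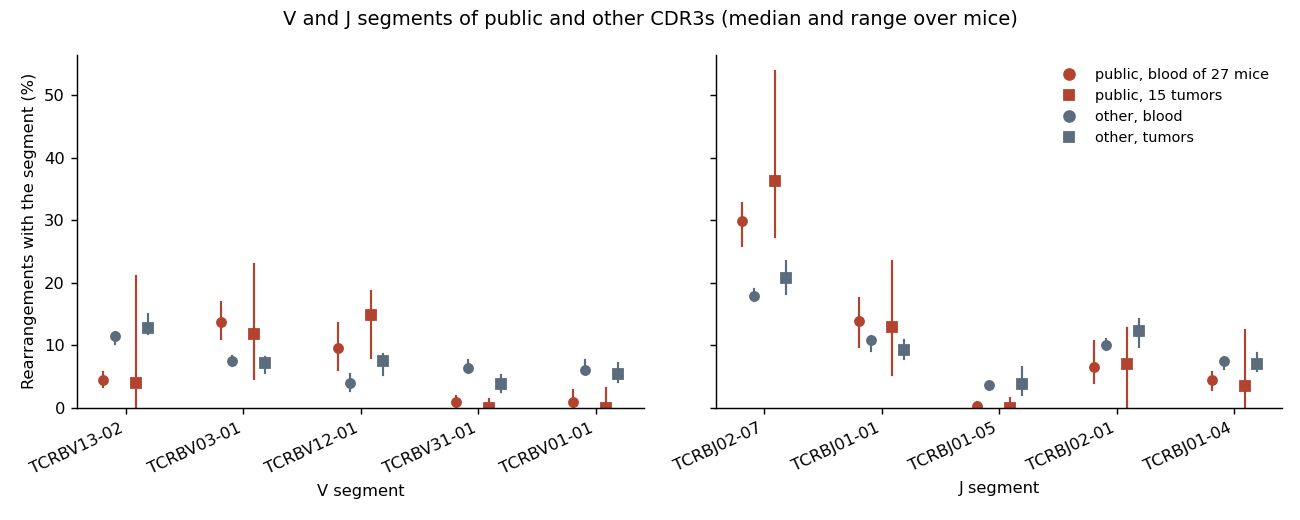
Share of rearrangements using the 5 V (left) and 5 J segments (right) with the largest difference, in %, as the median (marker) and range (line) over 27 mice for blood (circles) and 15 tumors (squares). Public CDR3s (red) lie above other CDR3s (grey) for TCRBV03-01, TCRBV12-01, TCRBJ02-07 and TCRBJ01-01 and below them for the other 6, with overlapping ranges in tumors for TCRBV13-02, TCRBV03-01, TCRBV12-01, TCRBJ01-01, TCRBJ02-01 and TCRBJ01-04.

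How many members a mouse showed followed its depth. The blood of a mouse held 186 to 983 members (median 464), and across the 27 mice the number went with the endogenous templates sequenced (r = 0.969, a description, since depth enters both). The 7 cured mice, with 4 libraries each and 30408 to 47459 templates, had 850 to 983 members, and no other mouse had more than 753. All 1157 members were found in both experiments. Within a mouse a member had a mean of 1.15 to 2.43 nucleotide sequences. The mean was 1.81 to 2.43 in the cured mice, the deepest, and at most 1.56 in the others.

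Tumors held members too. The rule did not use tumors, but they came from mice whose blood it used, and a CDR3 fixes its own length and limits its N insertions, so these features of tumors are descriptions. Of the 1157 members, 770 (66.6%) were in at least 1 tumor, and 14 to 222 members were found per tumor (median 106). In a tumor whose own mouse lacked the CDR3 in blood, 552 members (47.7%) were found, against 36.8% of CDR3s in 9 mice, 9.38% of those in 2 to 4 and 1.66% of those in 1. Public rearrangements in tumors had 1.59 ± 0.202 N insertions (SD over 15 tumors) and other rearrangements 3.75 ± 0.0859. The tumors ranged from 1.21 to 1.95 for public and from 3.6 to 3.9 for other CDR3s, without overlap. Public rearrangements had fewer in 15 of 15 tumors (public minus other -2.16). Length was 13.1 ± 0.251 and 14.1 ± 0.0464 amino acids, and shorter for public CDR3s in 15 of 15 tumors (public minus other -0.957).

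A smaller part of public rearrangements rested on 1 template. In tumors 55.2% ± 6.24 of public and 64.0% ± 2.42 of other rearrangements had a single template (SD, 15 tumors), lower in 14 of 15, a difference of -8.80 points (p = 0.000183 by an exact sign-flip test, adjusted p = 0.000183 over 3 features). Blood of the same mice took part in choosing the members, so this test cannot separate a trait of public CDR3s from that choice. The ranges overlapped, at 42.3% to 65.6% and 60.1% to 68.9%. This difference moved with the J segment. In blood, public rearrangements on TCRBJ02-07 had a median of 2.08 templates each and those on other J segments 1.17, and the corresponding values for other CDR3s were 2.05 and 1.197, so templates per rearrangement were higher on TCRBJ02-07 within both sets. With TCRBJ02-07 left out, the difference in single-template rearrangements was -3.599 points (lower in 10 of 15 tumors, p = 0.0567 by the exact sign-flip test), and those of N insertions and length were -2.14 and -0.851. TCRBJ02-07 is therefore named below wherever template counts carry a result.

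The summed share of the public CDR3s was narrow in blood. It ran from 5.81% to 16.2% of endogenous templates over 66 blood libraries (mean 7.85% ± 1.301, SD), and counted by rearrangements, whatever their templates, from 5.61% to 9.30%. On day 0 the share was 8.17%, 8.86%, 7.94%, 7.56% and 7.81% in mRBC-CTRL mice 1 to 5. At 2.5e8 it was 7.94%, 7.84%, 7.98%, 8.54% and 7.77% in mice 1 to 5, and at 1e9 it was 9.30%, 8.42%, 8.76% and 7.36% in mice 2 to 5. The arms overlapped before dosing. On day 7 it was 7.52%, 7.87%, 8.17% and 7.497% in mRBC-CTRL mice 2 to 5, 6.13%, 7.18%, 7.98%, 6.91% and 7.49% at 2.5e8, and 7.88%, 16.2%, 6.66%, 7.95% and 5.81% at 1e9. The arms again overlapped, with mouse 2 at 1e9 above and mouse 5 at 1e9 below every mouse of the other arms. The value of mouse 5 at 1e9 rests on 28 public of 482 endogenous templates (95% Wilson interval 4.05% to 8.27%).

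None of the 13 share comparisons within a tissue passed the adjustment over 14. The blood libraries compared here also chose the members, and their depth differed. At 2.5e8 the median was 9788 endogenous templates on day 0 and 2939 on day 7. The tests in blood therefore cannot separate a change, or a difference between arms, from the choice of members. Day 7 blood at 1e9 exceeded mRBC-CTRL by 1.14 points (exact permutation test, p = 0.913), a difference that turned to -0.690 without mouse 2 at 1e9, and at 2.5e8 it was lower (difference -0.627, exact permutation test, p = 0.127). From day 0 to day 7 the share changed by -0.275 points in mRBC-CTRL mice (lower in 3 of 4, SD 0.811, exact sign-flip p = 0.625), by -0.874 at 2.5e8 (lower in 5 of 5, SD 0.807, exact p = 0.0625, the smallest that 5 mice allow) and by 0.705 at 1e9 (lower in 3 of 4, SD 4.17, exact p = 1). The change in mRBC-CTRL mice was 0.0803 without mouse 2 and that at 1e9 was -1.37 without mouse 2. Tumors at 1e9 and 2.5e8 differed from mRBC-CTRL tumors by 0.878 (exact permutation test, p = 0.563) and 0.852 points (exact p = 0.317), the former -0.141 without mouse 2 at 1e9.

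**Figure D4:**
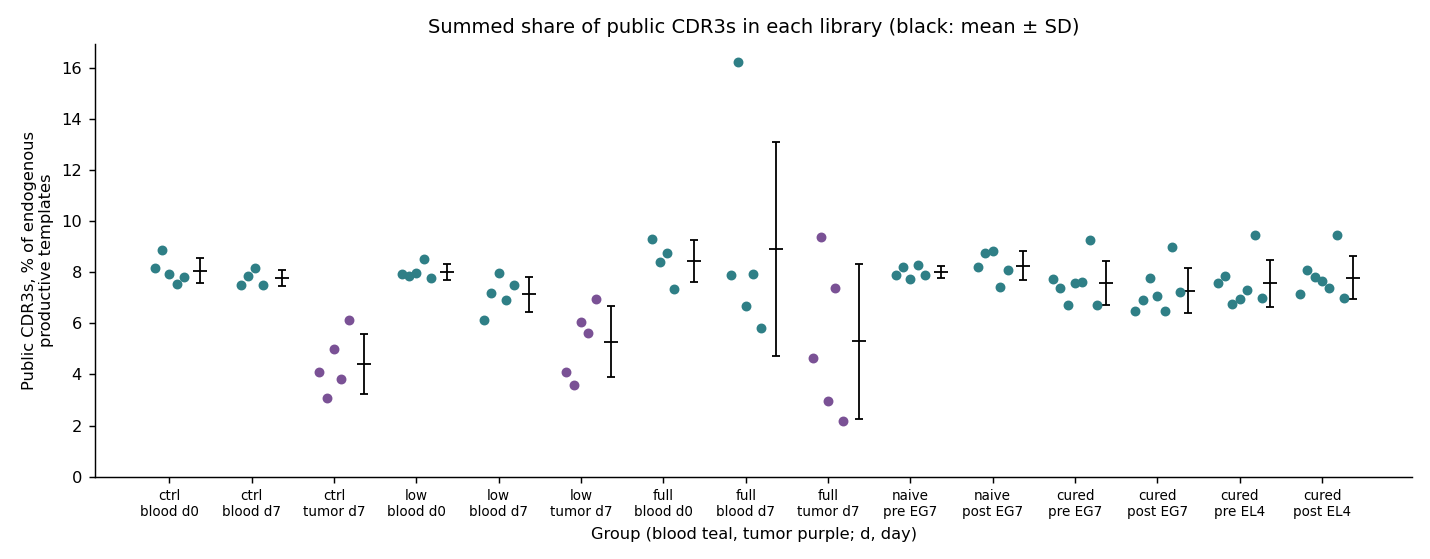
Summed share of public CDR3s in each of 81 libraries, in % of endogenous productive templates (y axis from 0), by group (x axis), with the mean ± SD in black beside the points. Blood (teal) lies between 5.81% and 9.47% apart from mouse 2 at 1e9 on day 7 (16.2%), tumors (purple) mostly lie lower, and the high point of each cured group is mouse 6.

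In the rechallenge experiment the share before EG7.OVA was 6.72% to 9.28% in the 7 cured mice (median 7.60%) and 7.91%, 8.20%, 7.76%, 8.30% and 7.90% in naive mice 1 to 5. After EG7.OVA it was 6.49% to 8.99% in cured mice (median 7.08%) and 8.23%, 8.74%, 8.84%, 7.41% and 8.07% in naive mice. The ranges overlapped on both days, before the challenge only through cured mouse 6, the highest cured mouse on all 4 days. Cured minus naive was -0.430 points before (exact permutation test, p = 0.303, adjusted p = 0.583) and -0.977 after the challenge (exact p = 0.0568, adjusted p = 0.292). Without cured mouse 6 these were -0.712 (adjusted p = 0.0303, exact permutation test) and -1.26 (adjusted p = 0.0606). Counted by rearrangements, cured mice were lower (differences of -0.726 and -0.915 points, exact permutation test, adjusted p = 0.0118 and 0.00884). The blood of both groups chose the members, with 4 libraries pooled for each cured mouse and 2 for each naive mouse. The tests between cured and naive mice therefore cannot separate a difference between the groups from the choice of members. Endogenous templates had a median of 8467 in cured and 4435 in naive mice before the challenge and 5634 and 5223 after it, and the share of rearrangements was lower in deeper libraries over the 66 blood libraries (r = -0.348, a description). With every library brought down to the smallest one, the differences were -0.487 (exact p = 0.340) and -0.986 (exact p = 0.0543) by templates. Cure, the earlier tumor, the red blood cell dose and the number of OT-1 cells (1e6 or 5e5) cannot be told apart here.

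Over time the share of cured mice changed by -0.301 points around EG7.OVA (lower in 5 of 7, SD 0.824, exact sign-flip p = 0.375), by 0.281 from then to day 126 (SD 0.763, exact p = 0.375) and by 0.227 around EL4 (SD 0.489, higher in 6 of 7, exact p = 0.266). In naive mice it changed by 0.246 around EG7.OVA (SD 0.723, higher in 4 of 5, exact p = 0.5). The changes of cured and naive mice around EG7.OVA differed by -0.548 points (exact permutation test, p = 0.247). All of these blood libraries took part in choosing the members, so the tests cannot separate a change from that choice.

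Tumors held a smaller public share than the blood of the same mouse. In tumors it was 4.10%, 3.07%, 5.02%, 3.82% and 6.12% in mRBC-CTRL mice 1 to 5, 4.11%, 3.604%, 6.06%, 5.64% and 6.97% at 2.5e8, and 4.64%, 9.38%, 2.95%, 7.38% and 2.17% at 1e9. Over the 14 mice with both tissues on day 7, tumors averaged 5.07% ± 1.99 and blood 7.95% ± 2.49 (SD), and the tumor was lower in 14 of 14. The difference was -2.88 points (SD 1.75). Blood chose the members, so it is given with no test. It was -3.26 in mRBC-CTRL mice, -1.86 at 2.5e8 and -3.61 at 1e9, and no difference between arms passed the test (exact permutation tests, p from 0.151 to 0.841). With members chosen in the blood of the other mice alone the difference was -2.07 (lower in 13 of 14, exact sign-flip p = 0.000244, adjusted p = 0.00342), and with members chosen in the rechallenge mice alone it was -3.06 (lower in 13 of 14, exact p = 0.0126, adjusted p = 0.176).

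The size of the difference moved with how clones were counted. Counted by rearrangements, tumors held 6.10% ± 0.729 and blood 7.49% ± 0.846 (difference -1.39, lower in 14 of 14). With rearrangements above 1% of a library left out, tumors held 6.73% and blood 8.10% (difference -1.36, lower in 9 of 14). With TCRBJ02-07 left out the difference was -3.17, lower in 14 of 14. The largest public rearrangement made up 8.33% to 60.1% of a tumor's public templates (median 21.96%) and a median of 1.25% of a blood library's.

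**Figure D5:**
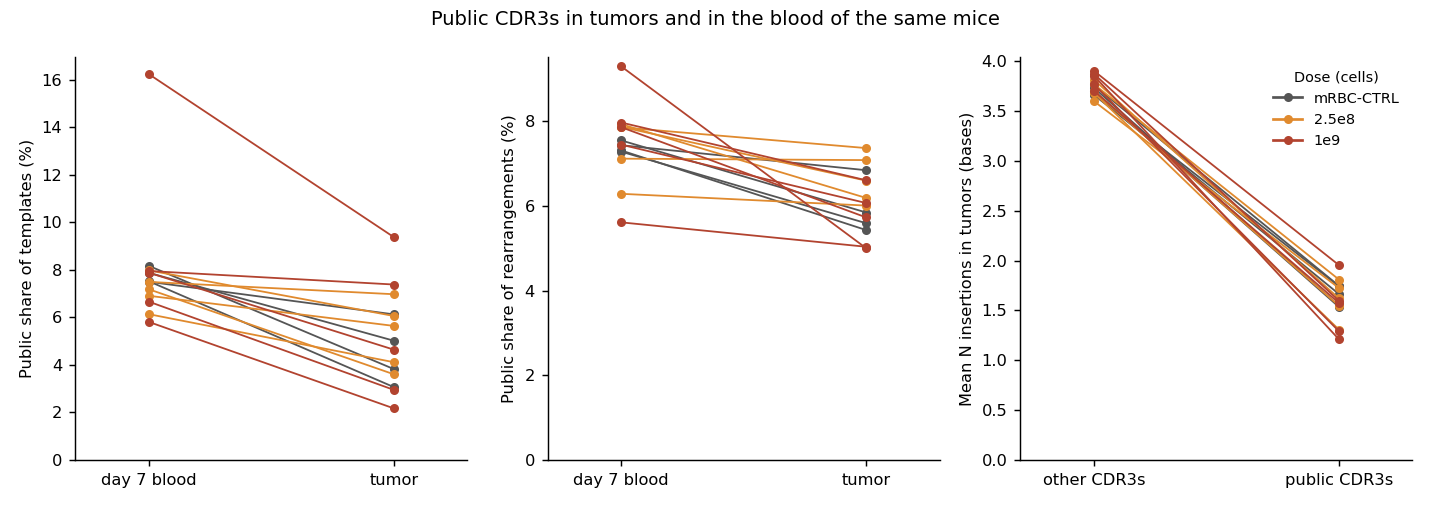
Public share of endogenous templates (left) and of rearrangements (middle) in day 7 blood and tumor, with a line for each of 14 mice, and mean N insertions of other and public rearrangements in 15 tumors (right), coloured by dose. All lines run downwards, by 2.88 points on average on the left, 1.39 in the middle and 2.16 bases on the right.

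Single members reached large shares in tumors. In 9 of 15 tumors, 11 members exceeded 1% of endogenous templates, in 12 cases, with 2 in mRBC-CTRL tumors, 5 at 2.5e8 and 5 at 1e9. These members were named after their values were seen. The count over other CDR3s above 1% is not given here, so these counts are not a result about public CDR3s. Nor do they compare arms, since depth differed. The cases in mouse 2 at 1e9 had 30, 15 and 13 of 832 endogenous templates, whereas mRBC-CTRL tumors held 11484 to 23605. At 2.5e8 the cases were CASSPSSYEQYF in mouse 4 (2.86%), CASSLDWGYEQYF in mouse 3 (2.36%), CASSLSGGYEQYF in mouse 2 (2.24%), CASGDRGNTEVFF in mouse 5 (1.53%) and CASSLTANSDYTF in mouse 4 (1.24%). At 1e9 they were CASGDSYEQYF in mouse 2 (3.61%), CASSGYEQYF in mouse 4 (2.43%), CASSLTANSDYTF in mouse 1 (2.15%) and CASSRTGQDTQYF and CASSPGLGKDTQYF in mouse 2 (1.80% and 1.56%). In mRBC-CTRL tumors they were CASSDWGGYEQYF in mouse 5 (2.83%) and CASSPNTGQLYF in mouse 3 (1.17%).

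In 11 of these 12 cases a single nucleotide rearrangement held at least 90% of the member's templates, and in the other, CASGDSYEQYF, it held 26 of 30. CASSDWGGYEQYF, for example, had 335 templates of 6 nucleotide sequences in the tumor of mRBC-CTRL mouse 5, of which 329 belonged to 1 rearrangement on TCRBV13-03. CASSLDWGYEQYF had 298 templates in the tumor of mouse 3 at 2.5e8, of which 293 belonged to 1 rearrangement on TCRBV04-01. Day 0 blood of the same mouse was available in 11 cases and held no template of the member in 9, and all 12 were found in day 7 blood of the same mouse, from 0.0627% to 6.27%. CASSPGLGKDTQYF was the only 1 larger in blood than in tumor. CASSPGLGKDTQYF also had the largest share of any member in blood, with 100 of 1595 endogenous templates in day 7 blood of mouse 2 at 1e9. On day 0 it had none of 4333 there, which allows a share of up to 0.0692%.

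Each member's templates were next set against each other in paired libraries of 1 mouse (2-sided Fisher's exact test, adjusted over every CDR3 with at least 5 templates in both libraries together). These tests compare 2 libraries and not conditions, cover counting error only, and take templates as independent. Of the 173 calls over members in all comparisons, 132 (76.3%) were of CDR3s on TCRBJ02-07, which 303 members (26.2%) use most. From day 0 to day 7, 1 of 101 members tested was called higher in mRBC-CTRL mice (background over all CDR3s 11.6%) and 2 were called lower (background 3.09%). At 2.5e8, 18 of 147 (12.2%) were called higher (background 31.9%) and 0 lower (background 0.247%), where an unadjusted p under 0.05 gave 1. At 1e9, 13 of 65 (20%) were called higher (background 43.7%) and 5 lower (background 5.51%). The share of members called higher was below the background in each arm. A member could reach the 5 templates needed for a test through several small rearrangements, whereas CDR3s of 1 mouse had a mean of 1.04 nucleotide sequences. Members and background thus passed this filter in different ways, so their shares here and in the comparisons below are a description. With TCRBJ02-07 left out, 1 of 23 members was called higher in mRBC-CTRL mice (26.3% of all CDR3s), 5 of 48 at 2.5e8 (40.3%) and 5 of 18 at 1e9 (42.6%). No member was called the same way in more than 1 mouse of an arm, and each call was an event of a single mouse. Those at 1e9 included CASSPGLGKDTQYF, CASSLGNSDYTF (22 of 1595 templates against 0) and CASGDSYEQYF (15 against 0), all in mouse 2.

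Between tumor and day 7 blood, 21 of 160 members (13.1%) were called higher in the tumor in mRBC-CTRL mice (background 29.2%), 14 of 87 (16.1%) at 2.5e8 (background 22.2%) and 16 of 55 (29.1%) at 1e9 (background 35.1%). Lower in the tumor were 39 of 160 (24.4%) in mRBC-CTRL mice (background 6.72%), 11 of 87 (12.6%) at 2.5e8 (background 4.8%) and 4 of 55 (7.27%) at 1e9 (background 8.62%). Blood took part in the rule and members are in it by choice, so the calls lower in tumor are a description. The members called higher mostly rested on 1 large rearrangement, with a median of 99.0% of templates, and in those called lower the largest rearrangement held a median of 50% in mRBC-CTRL mice, 60% at 2.5e8 and 92.5% at 1e9. With TCRBJ02-07 left out, 6 of 58 members were called higher in mRBC-CTRL tumors (33.0% of all CDR3s), 6 of 36 at 2.5e8 (28.4%) and 8 of 24 at 1e9 (36.1%). Called lower were 6 of 58 in mRBC-CTRL tumors (2.86% of all CDR3s), 1 of 36 at 2.5e8 (2.08%) and 2 of 24 at 1e9 (6.96%).

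In mRBC-CTRL mice, 4 members were called the same way in 2 mice. All 4 end in TGGYEQYF, with the YEQYF of TCRBJ02-07, and this ending was not counted over all members. On TCRBJ02-07 lay 15 of the 21 calls higher in the tumors of these mice and 33 of the 39 lower. The calls lower of these members rested on 5 to 13 blood templates. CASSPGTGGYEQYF had 0, 130, 67 and 2 templates in the tumors of mice 2 to 5 and 2, 11, 8 and 3 in their blood, and was called higher in the tumors of mice 3 (0.551% against 0.176%) and 4 (0.438% against 0.0748%). The largest rearrangement was on TCRBV12-01 in mouse 3 and on TCRBV29-01 in mouse 4, so the calls rested on different rearrangements. The further member of this ending with 55 nucleotide sequences had 0, 2, 0 and 0 templates in tumors and 2, 0, 13 and 6 in blood, and was called lower in mice 4 and 5. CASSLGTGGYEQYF had 10, 9, 0 and 0 in tumors and 3, 6, 6 and 5 in blood, and was called lower in the same mice. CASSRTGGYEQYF had 0, 3, 0 and 0 in tumors and 1, 7, 9 and 0 in blood, and was called lower in mice 3 and 4. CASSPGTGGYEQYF had 0 templates in the 5 tumors at 2.5e8 and the 5 at 1e9, which held 832 to 13790 endogenous templates. The mRBC-CTRL tumors held 11484 to 23605, and that of mouse 1 had 4 templates of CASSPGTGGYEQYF. It was named for its calls in mRBC-CTRL mice, so these counts do not compare arms. The other members named here each had templates in tumors at 2.5e8. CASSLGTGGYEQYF had 8 in mouse 3 and 3 in mouse 4 there, and 3 in mouse 4 at 1e9.

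Around the challenges few members were called. After EG7.OVA, 12 of 255 (4.71%) were higher in cured mice (background 9.72%) and 4 lower (background 0.67%), and in naive mice 2 of 100 were higher (background 1.47%) and 1 lower (background 1.47%). After EL4, 1 of 536 was higher (background 1.77%) and 9 (1.68%) lower (background 3.07%). On TCRBJ02-07 lay 14 of the 15 calls higher and 13 of the 14 lower. With it left out, 2 of 231 members were called higher (5.52% of all CDR3s) and 2 lower (1.95%). The call with the most templates was that of a member of 15 residues in cured mouse 6, printed above as its TCRBV14-01 rearrangement and named after its values were seen. It held 295, 160, 269 and 387 templates on days 65, 73, 126 and 136, equal to 2.58%, 1.96%, 2.32% and 2.71% of endogenous templates. Of these, 287, 158, 264 and 383 belonged to 1 rearrangement on TCRBV14-01 that was in no other mouse, and it was called lower on day 73 than on day 65 (Fisher's exact test, adjusted p = 0.0458). In the other mice that held it the CDR3 reached at most 0.0407%. It was read in no tumor, but all 15 tumors were of the treatment experiment and none came from a cured mouse.

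The members found in the most mice were small in each of them. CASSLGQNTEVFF reached at most 0.0852% of a blood library and 0.124% of a tumor, with 118 templates over all 66 blood libraries. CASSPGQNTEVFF reached at most 0.0670% in blood. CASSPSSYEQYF reached 0.306% in blood, in day 7 blood of mouse 4 at 2.5e8, whose tumor held it at 2.86%. Before dosing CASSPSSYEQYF was in 5 of 5 mRBC-CTRL mice (0.0763% to 0.244%), 4 of 5 mice at 2.5e8 and 4 of 4 at 1e9 (0.0462% to 0.0663%). It was in 9 of 15 tumors, a number reached otherwise only by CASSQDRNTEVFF. Over all members the largest share reached in any blood library had a median of 0.0545%, and 3 members exceeded 1% in blood, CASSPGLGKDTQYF and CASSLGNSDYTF in mouse 2 at 1e9 and the TCRBV14-01 member of cured mouse 6.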

How the data were processed

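Genomic DNA of blood and tumors was amplified by a multiplex PCR of the rearranged T-cell receptor β locus and sequenced. The authors deposited, for each of 81 libraries, template counts per nucleotide rearrangement of 87 bases with V, D and J calls and N insertions in bases, made with the immunoSEQ analyzer. Genome build and aligner are not given in the sources used here. The deposited frequency column, named a percentage, was not used.

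Shares were computed here as public templates in percent of productive templates other than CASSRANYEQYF and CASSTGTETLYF. The members, lists and tests were chosen with earlier results of these data known. Named CDR3s were those at the highest 2 mouse counts, the 5 with the most nucleotide sequences, the largest in a blood library and in a tumor, those called alike in at least 2 mice and the 3 with the most N insertions, and named segments were the 5 V and 5 J with the largest difference. The unit of testing was the mouse: exact permutation tests between groups and exact sign-flip tests within mice were 2-sided, with Benjamini-Hochberg adjustment over 14 share tests and 3 feature tests. Fisher's exact tests were adjusted within each mouse at 0.05. Intervals, floors (3 templates) and Fisher's tests cover counting error only. The tests were tested on simulated data. Python 3.11.15, numpy 2.4.6, pandas 2.3.3, scipy 1.17.1 and matplotlib 3.10.9 were used.

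Part of the label of the cured mouse 2 library after EG7.OVA reads mouse 1, and the animal code decided. Not analysed here were mouse 1 of mRBC-CTRL in day 7 blood and mouse 1 of the 1e9 arm in day 0 blood. No libraries held identical content. Within-mouse pairing came from the animal codes, and libraries of a mouse deviated together (correlation 0.493 over 41 pairs in the treatment and 0.729 over 47 in the rechallenge experiment). Alternatives changed the minimum of mice, the mice that chose the members, the denominator, the weight of templates, the depth, the block and the replicates. Leaving out rearrangements above 1% or TCRBJ02-07 was chosen after seeing the data.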

Additional observations from a re-analysis of the deposited data

Results flagged for a closer look

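In 15 groups of 4 to 7 libraries, 4 libraries had a public share far from the rest of their group by Dixon's test, where chance gives about 1 in 20 groups, or 0.75 here. Groups share mice, and cured mouse 6 was flagged before both challenges, so the flags are not independent and the excess was not tested. Day 7 blood of mouse 2 at 1e9 had a share of 16.2%, of which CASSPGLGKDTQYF alone made 6.27%. Cured mouse 6 had 9.28% before EG7.OVA and 9.45% before EL4, with its TCRBV14-01 member at 2.58% and 2.32%. Day 0 blood of mouse 4 at 2.5e8 had 8.54%, with 2683 endogenous templates, the fewest of its group.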

How the results depend on the processing

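Public minus other N insertions and length in tumors, and the tumor minus day 7 blood share, kept their direction under every alternative run. Apart from the leave-one-out fits, 158 values kept direction and side of the threshold or, for counts of Fisher calls, a similar size. Of the others, 25 were weaker, 11 stronger and 18 reversed in sign. The cause of the changes below was not tested. The tumor minus blood share is given with no test in the main setting, since blood chose the members. It was not past the adjusted threshold with a minimum of 8 mice (-3.32), 15 mice (-0.899), equal depth (-2.18) or rearrangements above 1% left out (-1.36), where blood also chose the members. With members of the other experiment, chosen without the blood compared, it was not past the threshold either (-3.06). Without TCRBJ02-07 the single-template difference was -3.599.

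In blood that took part in the rule, cured minus naive passed the adjusted threshold before and after EG7.OVA with the own mouse left out (-0.811, -1.07), rearrangements counted 1 time (-0.726, -0.915), those above 1% left out (-0.763, -1.08) and TCRBJ02-07 left out (-0.608, -0.885). With all productive templates as denominator, OT-1 and lymphoma included, it was 0.280 and -2.61, the cured changes were -1.87 around EG7.OVA and 1.47 from then to day 126, and signs turned for tumors at 1e9 minus mRBC-CTRL (-0.218), day 7 blood at 1e9 minus mRBC-CTRL (-4.24) and the changes to day 7 in mRBC-CTRL (1.22), 2.5e8 (0.560) and 1e9 (-2.77). Signs of differences that passed no test also turned elsewhere. With 15 mice they were -0.0796 (1e9, to day 7), 0.0682 and -0.0833 (cured, around EG7.OVA and on to day 126) and -0.0260 (naive). With members of the other experiment they were -0.164 (tumors, 2.5e8 minus mRBC-CTRL) and 0.0562 (cured, EG7.OVA). By rearrangements they were -0.327 (tumors, 1e9 minus mRBC-CTRL), 0.0178 (day 7 blood, 2.5e8 minus mRBC-CTRL) and -0.493 (1e9, to day 7). With rearrangements above 1% left out, tumors at 1e9 and 2.5e8 minus mRBC-CTRL were -1.09 and -0.248. Without TCRBJ02-07 the cured change around EL4 was -0.0481.

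Calls of members by Fisher's test numbered 51 higher and 54 lower in tumor than blood, 32 and 7 from day 0 to day 7, and 15 and 14 around the challenges. That was 16.9% and 17.9%, 10.2% and 2.24%, and 1.68% and 1.57% of the members tested, where all CDR3s gave 27.8% and 6.41%, 29.4% and 2.51%, and 4.00% and 2.24%. A minimum of 10 templates gave 10 of 113 lower in tumor (all CDR3s 3.88%), 18 and 1 of 36 to day 7 (84.1% and 1.44%), and 5 of 103 higher around the challenges (21.6%). An adjusted p under 0.01 gave 29 of 302 lower in tumor (3.40%), 0 of 313 lower to day 7 (0.327%) and 2 and 2 of 891 around the challenges (1.81% and 0.190%). Equal depth gave 20 of 186 lower in tumor (4.59%), 18 and 0 of 134 to day 7 (38.2% and 0.787%), and 2 and 1 of 552 around the challenges (2.91% and 0.382%). Without TCRBJ02-07 there were 20 and 9 of 118 (31.9% and 3.38%), 11 and 2 of 89 (37.9% and 1.79%), and 2 and 2 of 231 (5.52% and 1.95%).

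Leaving out 1 mouse at a time gave -0.978 to -0.919 for length, -2.18 to -2.12 for N insertions, -9.68 to -8.16 for single-template share and -3.07 to -2.58 for tumor minus blood. Against mRBC-CTRL, tumors gave -0.141 to 1.66 (1e9) and 0.428 to 1.28 (2.5e8), and day 7 blood -0.690 to 1.92 and -0.836 to -0.376. Changes to day 7 were -0.571 to 0.0803 (mRBC-CTRL), -1.09 to -0.641 (2.5e8) and -1.37 to 1.53 (1e9). Cured changes were -0.523 to -0.148, 0.145 to 0.491 and 0.0930 to 0.342, and the naive change 0.0361 to 0.530. Cured minus naive was -0.712 to -0.286 before and -1.26 to -0.831 after EG7.OVA, and the former passed the adjusted threshold without cured mouse 6.

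Replicate numbers shared between groups of different mice are only names (correlation of same-numbered mice -0.178 in the treatment and 0.373 in the rechallenge experiment). With the number as a block the cured minus naive differences were -0.597 and -1.31 and the day 7 blood differences 1.40 (1e9) and -0.376 (2.5e8), and the tumor minus blood difference without the block by mouse was -2.88. Neither changed a call.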

Other observations

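Of the J segments, templates per rearrangement over all blood libraries were highest on TCRBJ02-07 in public (2.17) and in other CDR3s (2.02), followed by TCRBJ01-05 (1.65 and 1.68) and TCRBJ01-03 (1.59 and 1.54), and lay near 1 on TCRBJ01-01 (1.03 and 1.03). These segments had the same order in public and other CDR3s. In single libraries TCRBJ02-07 exceeded the other J segments together in 65 of 66 blood libraries for public and in 66 of 66 for other CDR3s.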
